A study of Arabidopsis thaliana with 12 samples.

Results

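The single mutant smxl5-1 of Arabidopsis thaliana was compared with wild type (WT) across all genes, with 3 libraries of each genotype out of the 12 libraries of the series. The libraries were taken by their genotype labels alone. Of 20869 genes with a value in any of the 12 libraries, 19656 reached 1 FPKM in at least 3 libraries and were tested, and 69 of these (0.351%) differed between smxl5-1 and WT at a Benjamini-Hochberg adjusted p under 0.05 from limma. FPKM is the number of fragments per kilobase of transcript, scaled to the size of the library. All 4 groups were seedlings of the Col background (Col-0 for WT), aged 7 days and raised on MS plates with 12 h of light a day at 21 °C. They were WT, smxl5-1, the double mutant smxl4-1 smxl5-1 and smax1-2, with 3 biological replicates each, and 15 seedlings were pooled for a replicate per the labels. The nature of the 3 mutant alleles is not given in the sources used here, and each mutant genotype carries 1 named allele per gene, so an effect of the gene and one of the line cannot be told apart.

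SMXL5 belongs to a family of nuclear proteins related to heat-shock chaperones. In Arabidopsis, SMXL5 acts together with SMXL4 and SMXL3 to promote the formation of phloem, the tissue that carries sugars from leaves to roots. SMAX1, the founding member, is instead removed by karrikin signalling and restrains seedling responses to light. The comparison asks which genes depend on SMXL5 alone, as the title of the series sets SMXL4- and SMXL5-dependent genes beside SMAX1-dependent ones.

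The deposited tables list assembled transcript pieces, so a gene without a piece stands at 0 and a 0 is not a measured absence. Nearly all listed pieces rested on about 10 fragments or more, as estimated from their confidence bounds, since 0.501% to 0.704% of the pieces of the 6 libraries were under 9.5 fragments. The fragment estimates summed to between 14246284 and 16719167 per library, which is a lower estimate because the bounds of abundant pieces are wide. The smxl5-1 libraries varied more among themselves than the WT libraries, with a median SD over genes of 0.223 against 0.155 on the log2 scale. Their pieces were also less even, as 34.5%, 47.2% and 38.7% of pieces in smxl5-1 replicates 1, 2 and 3 matched a whole reference transcript, against 41.3% to 42.7% in WT. In RNA from seedlings, fewer cells of a type and less RNA per cell cannot be told apart.

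The mutated gene itself was among the largest differences, and it was higher in the mutant. SMXL5 (AT5G57130, chromosome 5, 23144947 to 23149615, plus strand, 4 exons, TAIR10.1) stood at 3.47, 5.18 and 4.75 FPKM in the WT libraries, and at 42.4, 50.6 and 40.0 FPKM in smxl5-1. It stood at 9, 9.01 and 18.2 FPKM for the double mutant, which carries the same allele, and at 5.21, 5.29 and 5.11 FPKM in smax1-2. Every smxl5-1 library was above every other library. The log2 fold change against WT was 3.06 with a standard error of 0.239 (limma, adjusted p = 0.000464), and SMXL5 was called in each of the 6 fits that left out 1 library. Against the double mutant the log2 difference was 1.86 (adjusted p = 0.0047) and against smax1-2 it was 2.86 (adjusted p = 0.00105).

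Each smxl5-1 library held 1 piece of SMXL5 with a splice junction that the reference transcript lacks. Those pieces were 1986, 3466 and 3512 nucleotides long, beside a reference transcript of 3571 nucleotides, and stood at 72.9, 10.5 and 6.38 FPKM in replicates 1, 2 and 3. In replicates 2 and 3 a second long piece matched the reference junctions, with 3231 and 3277 nucleotides at 31.3 and 34.6 FPKM, whereas replicate 1 held no such piece. No piece of SMXL5 in WT or smax1-2 had a new junction, and the double mutant had 0, 2 and 2. A piece of 130 nucleotides stood at 332 FPKM on 40.0 fragments in smxl5-1 replicate 2. In double mutant replicate 3 a piece of 129 nucleotides stood at 206 FPKM on 25.8 fragments. With effective lengths, which allow for the fragment length, SMXL5 stood at 38.8, 39.0 and 38.2 FPKM in smxl5-1. The double mutant then stood at 7.08, 7.09 and 10.3 FPKM. From the bounds, SMXL5 rested on 243 to 353 fragments per library in WT and on 1261 to 1370 in smxl5-1. The level of the transcript therefore does not check the labels for loss of function, and directions below rest on the genotypes as labelled.

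The other mutated genes of the series, SMXL4 and SMAX1, and the tested genes beside SMXL5 did not pass the test. SMXL4 stood at 3.01, 1.81 and 2.06 FPKM in the WT libraries, and at 2.3, 2.1 and 1.82 FPKM in smxl5-1 (log2 fold change -0.08, adjusted p = 0.979). SMAX1 stood at 22.5, 21.3 and 21.3 FPKM in the WT libraries, and at 25.9, 34.6 and 24.7 FPKM in smxl5-1 (0.36, adjusted p = 0.325). Of the 8 genes of the SMXL family, SMXL5 alone was called, and the median log2 fold change of the 8 was -0.00. Within 25 kb of SMXL5, 8 of 10 annotated genes were tested and 0 were called with either gene value. Their log2 fold changes ran from -0.23 for CIA2, a regulator of chloroplast protein import, to 1.18 for AT5G57123, and in none of them did the groups separate. The adjacent gene downstream, PAP28, was listed in 1 library each of WT and smxl5-1, at 6.75 FPKM in WT replicate 3 and 4.2 FPKM in smxl5-1 replicate 1.

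Of the 69 genes called against WT, 49 were higher in smxl5-1 (0.249% of those tested) and 20 were lower (0.102%). A change of 1 or more on the log2 scale was reached by 34 of them, 23 higher and 11 lower. An unadjusted p under 0.05 was reached by 2396 genes, 1735 higher and 661 lower. In all 69 called genes the WT and smxl5-1 libraries did not overlap, which held for 3736 genes in all, or 19% of those tested. The called genes lay on all 5 chromosomes, 19 on chromosome 1, 11 on chromosome 2, 11 on chromosome 3, 12 on chromosome 4 and 16 on chromosome 5.

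The number of calls depended on how a piece was scaled to its gene. With effective lengths, which allow for the fragment length, 139 of 18884 genes were called (0.736%), 105 higher and 34 lower, and 61 genes were called with both values, 42 higher and 19 lower. Effective lengths followed the bounds of short pieces more closely, as pieces of a median of 178 nucleotides had an effective length of 18.4 from the bounds and 21.2 by assumption. The share of higher calls varied with the scaling. It was 71.0% as reported, 51.4% of 37 calls after quantile normalization and 53.1% of 49 calls after median-of-ratios scaling. Which scaling is right was not tested. Without WT replicate 1, 2 or 3, the fit called 23, 35 and 33 genes, of which 17, 25 and 24 were among the 69. Without smxl5-1 replicate 1, 2 or 3, it called 33, 59 and 35, of which 23, 40 and 24 were among the 69. The genes described in the following were called with both values unless it is said otherwise.

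**Figure D1:**
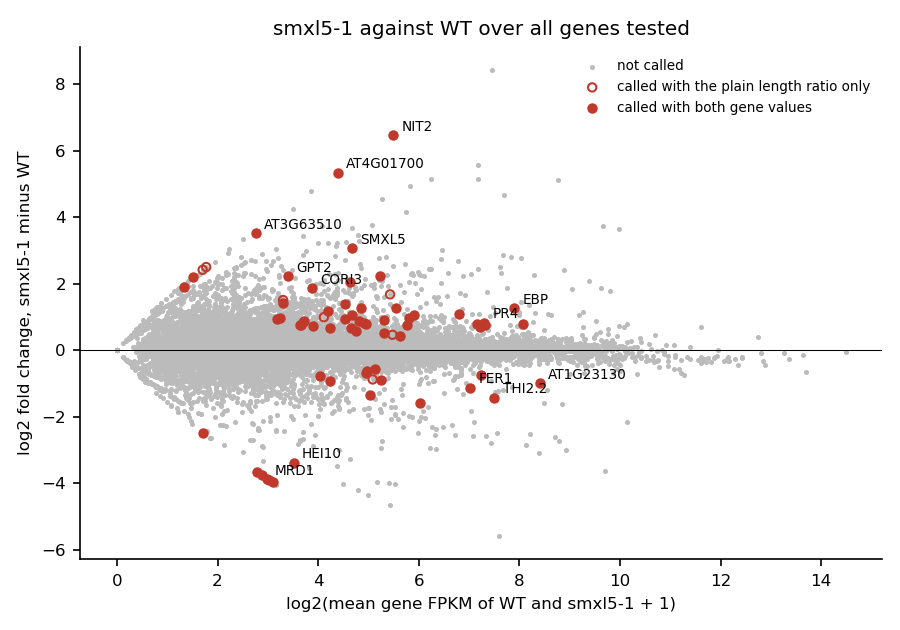
Each point is 1 of the 19656 tested genes, with the log2 of its mean FPKM over WT and smxl5-1 plus 1 on the horizontal axis and the log2 fold change of smxl5-1 minus WT on the vertical axis; filled red points were called with both gene values and open red points with the plain length ratio alone. The 61 genes called with both values run from a log2 fold change of -3.97 to 6.45, and some genes that were not called lie as far from 0.

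The 2 strongest calls were genes with no piece in any library of the other 3 groups. NIT2 (AT3G44300, chromosome 3, 15983199 to 15985535, plus strand), a nitrilase that converts nitriles such as indole-acetonitrile into acids, stood at 76.0, 106 and 80.7 FPKM with smxl5-1 and was listed at 0 in the 9 other libraries (adjusted p = 3.74e-07 in limma). AT4G01700 (chromosome 4, 732313 to 733510, minus strand), annotated as a chitinase family protein, stood at 43.0, 31.3 and 45.5 FPKM with smxl5-1 and was likewise listed at 0 elsewhere (adjusted p = 5.05e-06). Both were called in each fit that left out 1 library. Leaving out a WT library removed only a 0 in those fits. The genes tested were held the same, and both of these had passed the filter through smxl5-1 alone. Neither rests on a few reads, since the bounds give 1911, 2841 and 2102 fragments for NIT2 and 434, 423 and 554 for AT4G01700.

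NIT2 was assembled in each smxl5-1 library as a single piece that matches the reference junctions, of 1319, 1276 and 1333 nucleotides beside a reference of 1423. Its neighbour NIT1 begins 1088 nucleotides downstream and was listed in every library, at 654, 593 and 607 FPKM in the WT libraries, and at 744, 841 and 876 FPKM in smxl5-1. That difference of 0.40 on the log2 scale did not pass (adjusted p = 0.358). The third nitrilase of the cluster, NIT3, stood at 17.6, 15.5 and 17.6 FPKM in the WT libraries, and at 19.5, 55.4 and 21.7 FPKM in smxl5-1 (0.73, adjusted p = 0.41), with replicate 2 apart from replicates 1 and 3. These 3 genes are close in sequence, so how the assembly shared reads among them is uncertain, and its part in the 0 values of NIT2 was not tested.

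The 300 bases before the annotated starts of NIT2, its neighbour NIT1 and AT4G01700 are given because NIT2 and AT4G01700 carry the largest called differences and NIT1 is the adjacent family member that is listed in all libraries. They are from RefSeq TAIR10.1, 5′ to 3′ on the strand of the gene, at chr3:15982899-15983198, chr3:15986324-15986623 and chr4:733511-733810. Capitals mark a match to the W-box core TTGAC, the core of the site of WRKY factors, on either strand.
NIT2: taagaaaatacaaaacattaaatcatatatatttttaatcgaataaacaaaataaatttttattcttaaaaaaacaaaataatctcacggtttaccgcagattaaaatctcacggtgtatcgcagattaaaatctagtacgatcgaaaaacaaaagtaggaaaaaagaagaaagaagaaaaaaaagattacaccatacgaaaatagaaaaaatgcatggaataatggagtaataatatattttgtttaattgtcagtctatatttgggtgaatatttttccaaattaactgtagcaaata
NIT1: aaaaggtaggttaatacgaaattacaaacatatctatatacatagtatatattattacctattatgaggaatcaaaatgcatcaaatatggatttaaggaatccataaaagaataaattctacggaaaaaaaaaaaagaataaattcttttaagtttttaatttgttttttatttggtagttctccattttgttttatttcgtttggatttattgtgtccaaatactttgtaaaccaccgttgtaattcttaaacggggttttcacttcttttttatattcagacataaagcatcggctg
AT4G01700: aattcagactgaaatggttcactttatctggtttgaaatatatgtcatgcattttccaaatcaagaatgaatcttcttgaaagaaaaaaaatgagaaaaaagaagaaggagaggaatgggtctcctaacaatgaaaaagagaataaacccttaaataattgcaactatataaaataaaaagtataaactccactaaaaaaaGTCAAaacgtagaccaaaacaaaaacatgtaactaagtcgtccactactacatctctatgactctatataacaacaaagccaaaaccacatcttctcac

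The W-box core was found once before AT4G01700, at -99, and in neither nitrilase window. The core TTGAC was present in 25 of the 42 windows of higher genes (59.5%), in 12 of 19 windows of lower genes (63.2%) and in 50.2% of the windows of 19540 tested genes. The core of the as-1 element, TGACG, was present in 15 of 42 (35.7%), 4 of 19 (21.1%) and 22.0%, and its letters can share TGAC with the W-box core. The GCC box GCCGCC, the site of ethylene response factors, was present in 2 of 42, 0 of 19 and 2.37%, and the G-box CACGTG in 4 of 42, 0 of 19 and 7.89%. A match of these letters is a description of the window and not a site in use.

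Of 12 genes that were listed in all 3 smxl5-1 libraries and in no other library, NIT2, AT4G01700, AT3G63510, AT1G10220 and AT2G34000 were called. AT3G63510, annotated as an FMN-linked oxidoreductase, stood at 16.7, 5.29 and 12.8 FPKM in smxl5-1 (adjusted p = 0.00708). AT1G10220 (3.92, 3.55 and 7.06 FPKM, adjusted p = 0.0219, called with the plain length ratio alone) and the RING-domain gene AT2G34000 (4.88, 2.78 and 3.45 FPKM, adjusted p = 0.0329) were named after their values were seen. Without 1 library AT2G34000 was called in 0 of 6 fits (0.0585 to 0.135) and AT1G10220 in 1 (0.0468 to 0.0934). AT3G63510 was called in all 6, but not with a filter of 5 FPKM (0.164), the 6 libraries alone (0.0621) or the plain sum of FPKM (0.0689). The lipase-like gene AT1G54790 was listed at 63.0, 1.45 and 7.15 FPKM and was not called (adjusted p = 0.164). The other 6 without a call stayed under 7 FPKM, and AT1G50830 among them did not reach the filter and was not tested. A gene at 0 gives no fold, so the fitted values of this paragraph are tests of a difference and not sizes. Those of the 12 that were tested passed the filter only through smxl5-1.

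**Figure D2:**
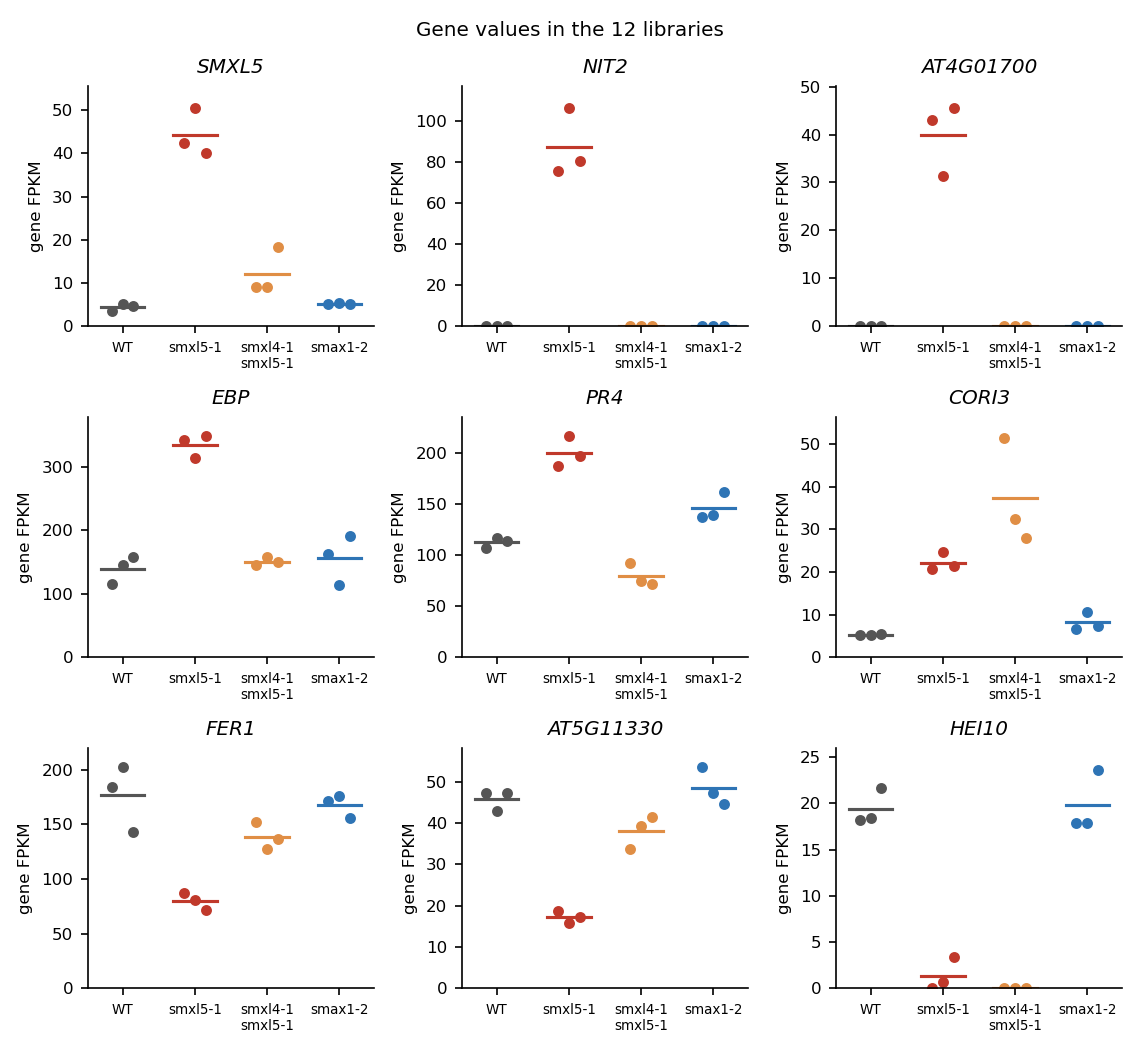
Gene FPKM of 9 genes in the 12 libraries, with 1 point per library, a horizontal bar at the mean of each group of 3 and a vertical axis that starts at 0. In all 9 panels the smxl5-1 points (red) lie clear of the WT points (grey). In the double mutant (orange) SMXL5, CORI3, AT5G11330 and HEI10 lie on the same side of WT as smxl5-1, while PR4 lies on the other side.

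EBP, PR4, KTI1, CORI3 and AT1G80130 rose and had a measured level in both groups. EBP (AT3G16770, also RAP2.3), an ethylene response factor of the group that is stabilised when oxygen is low, stood at 116, 145 and 158 FPKM in the WT libraries, and at 342, 314 and 349 FPKM in smxl5-1. The double mutant (146, 158 and 150 FPKM) and smax1-2 (162, 115 and 192 FPKM) lay in the WT range or near it, and all smxl5-1 libraries were higher. The log2 fold change of EBP was 1.27 ± 0.171 (SE) against WT (adjusted p = 0.0193), 1.14 against the double mutant (adjusted p = 0.00886) and 1.13 against smax1-2 (adjusted p = 0.0408). Against WT it was lost without WT replicate 1 (adjusted p = 0.0831) or 2 (0.0576), or without smxl5-1 replicate 1 (0.0615) or 3 (0.0658).

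PR4, a chitin-binding protein induced by ethylene and jasmonate, stood at 107, 117 and 113 FPKM in the WT libraries, and at 187, 217 and 197 FPKM in smxl5-1 (log2 fold change 0.83, SE 0.107, adjusted p = 0.0144). In the double mutant PR4 stood at 92.0, 74.7 and 72.0 FPKM, below every WT library, and the difference between the mutants was 1.33 on the log2 scale (adjusted p = 0.000338). The call against WT was lost without WT replicate 1 (0.0831) or 3 (0.0512). KTI1, a Kunitz trypsin inhibitor named after its values were seen, had the same order, at 70.2, 62.8 and 78.5 FPKM in the WT libraries, 151, 174 and 130 FPKM with smxl5-1, 51.1, 49.6 and 49.1 FPKM for the double mutant and 85.6, 80.1 and 95.9 FPKM in smax1-2. It was 1.09 higher in smxl5-1 than in WT (adjusted p = 0.00708), 1.57 higher than in the double mutant (adjusted p = 0.000226) and 0.78 higher than in smax1-2 (adjusted p = 0.0369), all on the log2 scale.

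CORI3, a cystine lyase known as a jasmonate- and coronatine-induced gene, stood at 5.24, 5.15 and 5.51 FPKM in the WT libraries, and at 20.6, 24.6 and 21.3 FPKM in smxl5-1 (log2 fold change 1.88, SE 0.214, adjusted p = 0.00728), and it was called in all 6 fits that left out 1 library. Here the double mutant was on the same side, at 51.3, 32.3 and 28.1 FPKM, and did not differ from smxl5-1 at the threshold (-0.68, adjusted p = 0.129). In smax1-2 CORI3 stood at 6.70, 10.5 and 7.38 FPKM, below every smxl5-1 library (1.35 lower, adjusted p = 0.0439). AT1G80130, a tetratricopeptide-repeat gene, was also high in both carriers of smxl5-1: 7.23, 15.2 and 14.4 FPKM in the WT libraries, 45.2, 49.9 and 86.9 FPKM with smxl5-1, 59.2, 46.2 and 47.0 FPKM for the double mutant, and 14.8, 12.7 and 23.4 FPKM in smax1-2. Its log2 fold change against WT was 2.22 (adjusted p = 0.0239, and 0.0865 without WT replicate 1, 0.057 without WT replicate 3 and 0.0696 without smxl5-1 replicate 3).

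GPT2 and STP13, both sugar carriers, rose as well. GPT2, which brings glucose phosphate into plastids and is known to respond to sugar, stood at 2.39, 3.71 and 1.67 FPKM in the WT libraries, and at 16.3, 8.67 and 24.7 FPKM in smxl5-1 (log2 fold change 2.22, SE 0.367, adjusted p = 0.0412). STP13, a hexose carrier of the plasma membrane, stood at 4.73, 5.90 and 4.89 FPKM in the WT libraries, and at 10.7, 12.0 and 9.99 FPKM in smxl5-1 (0.95, SE 0.141, adjusted p = 0.0272). Every library of the double mutant and smax1-2 was also above every WT library. GPT2 stood at 11.8, 6.24 and 5.91 FPKM for the double mutant and at 5.14, 4.59 and 3.79 FPKM in smax1-2. STP13 stood at 9.57, 9.53 and 7.35 FPKM for the double mutant and at 8.85, 7.81 and 9.56 FPKM in smax1-2. Neither gene was called between smxl5-1 and these mutants (limma adjusted p = 0.235 and 0.147 for GPT2, 0.345 and 0.451 for STP13). For both genes the lowest smxl5-1 library was above the highest WT library, but among fits without 1 library GPT2 passed only without smxl5-1 replicate 2 (0.0229 to 0.166 over the 6) and STP13 only without WT replicate 2 (0.0497 to 0.134). Of 21 tested genes of sugar transport and cleavage these 2 were called, 16 were positive and the median log2 fold change was 0.24, beside 0.07 over all tested genes, of which 0.351% were called. Without smxl5-1 replicate 2 the median of the list was 0.08 and that of all genes 0.09. SWEET15 (16.7, 18.1 and 12.4 against 25.2, 41.5 and 34.5 FPKM) and STP4 (21.4, 23.7 and 24.2 against 33.0, 46.9 and 36.0 FPKM) did not pass (adjusted p = 0.138 and 0.201). PPT2, a plastid carrier of phosphoenolpyruvate, went the other way, from 27.2, 21.9 and 22.3 FPKM in WT to 12.5, 12.9 and 10.7 FPKM in smxl5-1 (-0.92, adjusted p = 0.0325, but 0.0575 to 0.155 and called in 0 of the 6 fits without 1 library).

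The other higher genes chosen by size were 4. ATPMEPCRB (AT4G02330), a pectin methylesterase, stood at 5.82, 9.67 and 10.9 FPKM in the WT libraries, and at 32.4, 34.9 and 50.0 FPKM in smxl5-1 (log2 fold change 2.05, adjusted p = 0.033). MAM3, which extends the side chains of aliphatic glucosinolates, stood at 14.8, 16.6 and 16.1 FPKM in the WT libraries, and at 36.0, 47.1 and 36.8 FPKM in smxl5-1 (1.28, adjusted p = 0.0464), and in the double mutant at 61.3, 31.7 and 33.5 FPKM. In smax1-2 MAM3 stood at 26.8, 30.3 and 32.8 FPKM, also above every WT library. It was not called between smxl5-1 and smax1-2 (0.40, limma adjusted p = 0.502). MAM3 was the only call among 19 tested genes of aliphatic glucosinolates, of which 14 were negative, with a median log2 fold change of -0.13. ATPMEPCRB and MAM3 lost the call in each fit without 1 library, with adjusted p from 0.0658 to 0.155 and from 0.0936 to 0.181. AT5G48657, annotated as defense protein-like (5.02, 3.13 and 5.08 against 15.9, 11.4 and 12.8 FPKM, adjusted p = 0.0239), and the uncharacterized AT2G35736 (12.0, 15.1 and 8.66 against 27.3, 29.4 and 40.8 FPKM, adjusted p = 0.0277) did not overlap between WT and smxl5-1, and each was called in 1 of those 6 fits. In smax1-2 AT5G48657 stood at 10.6, 7.28 and 9.10 FPKM, also above every WT library.

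On the lower side, FER1 (AT5G01600), a plastid ferritin that stores iron, fell from 185, 203 and 143 FPKM in WT to 87.5, 80.8 and 71.6 FPKM in smxl5-1. The double mutant (152, 127 and 136 FPKM) and smax1-2 (171, 176 and 156 FPKM) lay above every smxl5-1 library. The log2 fold change of FER1 was -1.12 ± 0.132 (SE) against WT (adjusted p = 0.00797), and it was -0.79 against the double mutant (adjusted p = 0.0151) and -1.06 against smax1-2 (adjusted p = 0.0133). FER1 was called against WT in each fit that left out 1 library. FER3, a second ferritin, stood at 47.9, 50.3 and 50.8 FPKM in the WT libraries, and at 35.7, 27.8 and 34.9 FPKM with smxl5-1, which did not pass (-0.59, adjusted p = 0.0854).

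AT5G11330, annotated as an FAD/NAD(P)-binding oxidoreductase, fell from 47.2, 42.9 and 47.2 FPKM in WT to 18.7, 15.7 and 17.4 FPKM in smxl5-1 (log2 fold change -1.36, SE 0.104, adjusted p = 0.000455). It stood at 33.8, 39.2 and 41.5 FPKM for the double mutant and at 53.5, 47.3 and 44.7 FPKM in smax1-2, and smxl5-1 was lower than either (-1.10, adjusted p = 0.00106, and -1.44, adjusted p = 0.00033). AT1G23130, annotated as a polyketide cyclase or lipid transport protein, had another order. It stood at 498, 430 and 417 FPKM in the WT libraries, 203, 244 and 229 FPKM with smxl5-1 and 81.7, 93.7 and 70.1 FPKM for the double mutant, without overlap among these groups, and at 490, 523 and 511 FPKM in smax1-2. It was 0.99 lower in smxl5-1 than in WT (log2 fold change -0.99, adjusted p = 0.00797) and 1.46 higher than in the double mutant (adjusted p = 0.000315). Both genes kept their call against WT in all 6 fits without 1 library.

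Both thionin genes among the calls, which encode small antimicrobial peptides, fell. THI2.2 stood at 303, 237 and 244 FPKM in the WT libraries, and at 89.4, 138 and 71.3 FPKM in smxl5-1 (log2 fold change -1.43, SE 0.232, adjusted p = 0.0381). AT1G66100 stood at 106, 102 and 80.7 FPKM in the WT libraries, and at 34.5, 41.5 and 20.9 FPKM in smxl5-1 (-1.59, SE 0.258, adjusted p = 0.0379). In the double mutant THI2.2 stood at 141, 151 and 208 FPKM and AT1G66100 at 37.6, 31.9 and 43.4 FPKM, also below every WT library. Both passed in 1 of the 6 fits without 1 library, the one without smxl5-1 replicate 2, with ranges of 0.0143 to 0.166 and 0.0423 to 0.166. These genes are alike in sequence, so reads may have been shared between them.

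Another 6 lower genes chosen by size were at 0 or near it in smxl5-1. HEI10 (AT1G53490, chromosome 1, 19963267 to 19966952), a ligase of meiotic crossover formation, stood at 18.2, 18.5 and 21.7 FPKM in the WT libraries, and at 0, 0.679 and 3.43 FPKM in smxl5-1. MRD1 (AT1G53480, 19963047 to 19964712), which overlaps it by 1446 nucleotides on the other strand, stood at 14.2, 11 and 16 FPKM in the WT libraries and was listed at 0 in smxl5-1. The double mutant listed neither gene, and smax1-2 held HEI10 at 17.9, 17.9 and 23.6 FPKM and MRD1 at 13.9, 22.4 and 28.0 FPKM, so both groups that carry smxl5-1 were low and WT and smax1-2 were not. The adjusted p against WT was 0.0123 for HEI10 (0.0606 without WT replicate 1, 0.0512 without WT replicate 3) and 0.000131 for MRD1. They were the only adjacent pair of called genes, and with no strand stated for the libraries their reads cannot be told apart. The longest HEI10 piece of each WT library covered 933, 1113 and 907 of 2252 nucleotides.

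AT5G27500 stood at 15.2, 11.2 and 16.3 FPKM in the WT libraries and was listed at 0 in the 9 mutant libraries (adjusted p = 0.00026). AT3G01329 (8.97, 15.5 and 13.7 FPKM in the WT libraries, adjusted p = 0.000473) was also listed in WT alone, but on 9.59 estimated fragments in each library, the lower end of what the tables list. The primary transcript of MIR171b, a microRNA gene named after its values were seen, was the third called gene listed in WT alone, at 4.45, 4.80 and 4.51 FPKM in WT on 22.0, 9.59 and 17.0 fragments (adjusted p = 0.0138, called in 3 of 6 fits without 1 library, 0.0328 to 0.0937). AT5G27500, AT3G01329 and MIR171b passed the filter only through WT, the group in which they were high. Their tests compare the WT values with 0, and leaving out a smxl5-1 library removed only a 0. AT5G18661 stood at 11.9, 12.1 and 21.6 FPKM in the WT libraries, at 0 in both carriers of smxl5-1 and at 65.1, 52.7 and 10.6 FPKM in smax1-2 (adjusted p = 0.0193), on 9.59 to 16 fragments per library. AT2G07811 stood at 11.1, 13.8 and 10.5 FPKM in the WT libraries, and at 0 in smxl5-1 (adjusted p = 0.0193), and at 5.18, 3.04 and 1.62 FPKM for the double mutant. In smax1-2 AT2G07811 was low as well, at 0, 0 and 2.76 FPKM. It lies in the stretch of mitochondrial DNA inserted in chromosome 2, so its reads may belong to the mitochondrial copy. AT5G18661 and AT2G07811 each passed in 1 of the 6 fits without 1 library.

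**Figure D3:**
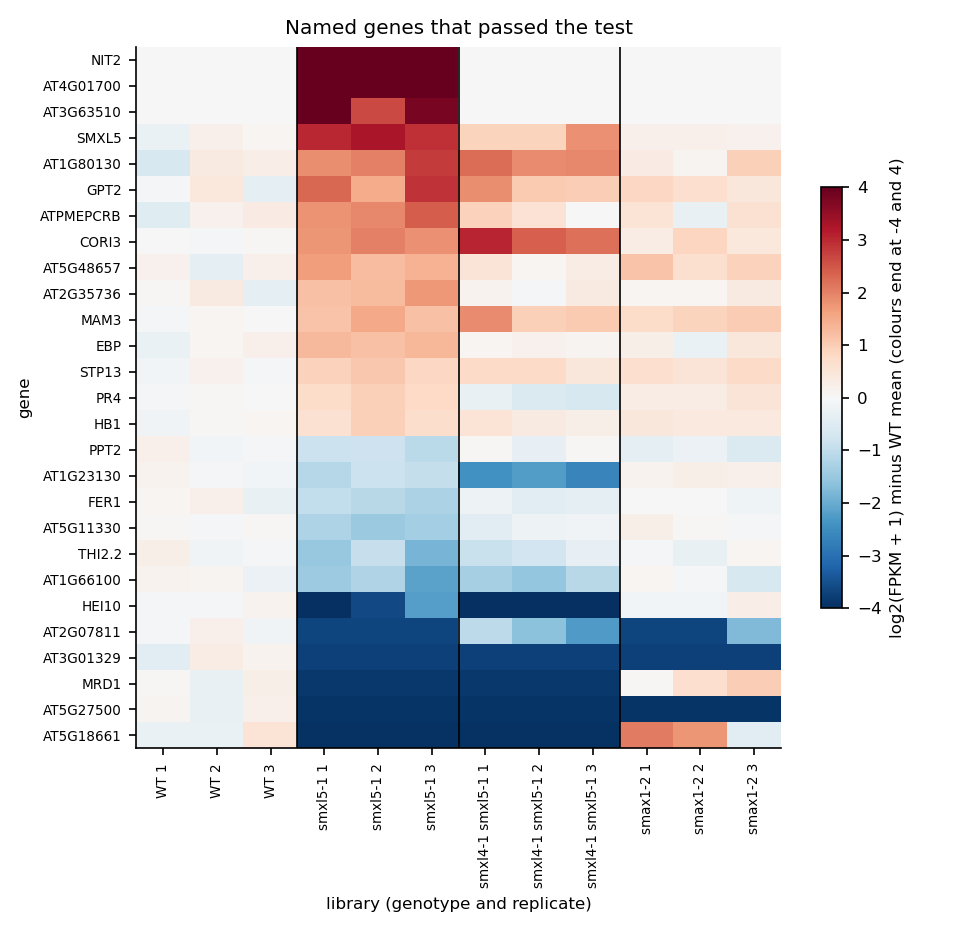
Log2(FPKM + 1) minus the WT mean in each of the 12 libraries (columns) for the 27 named genes that were called (rows), with red for higher and blue for lower and colours that end at -4 and 4. The 3 smxl5-1 columns keep 1 colour in every row; the double mutant varies by gene, and its libraries are all at 0 for MRD1, HEI10, AT5G27500, AT3G01329 and AT5G18661, where smxl5-1 is low, and for NIT2, AT4G01700 and AT3G63510, where WT is at 0.

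Tested directly against the other mutants, smxl5-1 differed from the double mutant in 588 genes (2.99% of those tested), 353 higher in smxl5-1, and from smax1-2 in 44 genes (0.224%), 28 higher. These fits share the smxl5-1 libraries with the comparison against WT, so they are not independent of it. Among the 69 genes called against WT, the mean of the double mutant lay on the same side of WT in 51 and that of smax1-2 in 55. These counts share the WT libraries with the calls, and the same share over all tested genes was not computed. In the same direction as against WT, 36 of the 69 were called against the double mutant and 22 against smax1-2. Called in the same direction against all 3 other groups were 14 genes (0.0712%), 12 higher and 2 lower in smxl5-1. They were NIT2, AT4G01700, AT3G63510, SMXL5, AT1G10220, AT2G34000, EBP, KTI1, AT4G32460, UTR2, CAD5 and AT5G59960 on the higher side, and FER1 and AT5G11330 on the lower. NIT2, AT4G01700, AT3G63510, AT1G10220 and AT2G34000 were listed in smxl5-1 alone and passed the filter only through it. Their 3 tests compare the same values with 0 and so count as 1. The genes not described above were chosen after their values were seen. Among fits without 1 library, UTR2 was called against WT in 6 of 6, CAD5 in 0 (adjusted p from 0.065 to 0.155), AT4G32460 in 1 (0.0378 to 0.121) and AT5G59960 in 1 (0.0423 to 0.105). CAD5, a cinnamyl alcohol dehydrogenase of lignin synthesis, stood at 36.9, 40.3 and 41.5 FPKM in the WT libraries, and at 66.8, 68.1 and 68.5 FPKM in smxl5-1 (log2 fold change 0.76, adjusted p = 0.0303). UTR2, a UDP-galactose transporter, stood at 19.2, 20.6 and 22.3 FPKM in the WT libraries, and at 37.6, 33.8 and 40.6 FPKM in smxl5-1 (0.82, adjusted p = 0.00708). AT4G32460, a wall protein with a DUF642 domain, stood at 22.9, 30.7 and 26.0 FPKM in the WT libraries, and at 45.8, 58.6 and 48.0 FPKM in smxl5-1 (0.91, adjusted p = 0.0275). AT5G59960 had the smallest difference, 0.56 (adjusted p = 0.0216), from 19.4, 21.7 and 21.5 FPKM to 31.5, 30.2 and 32.2 FPKM. Leaving out 1 library changed the count against the double mutant from 588 to between 207 (without its replicate 3) and 486, with 317 without its replicate 2 and 323 without smxl5-1 replicate 1 or 3. Quantile normalization gave 263 higher and 260 lower against the double mutant. Against smax1-2 the majority turned without smxl5-1 replicate 1 (15 higher, 18 lower) or 2 (13 higher, 17 lower), and the count was 25 without smxl5-1 replicate 3 and 14, 27 and 21 without smax1-2 replicates 1, 2 and 3.

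Most called genes lay outside the known pathways examined. Of 648 distinct genes tested from 37 lists of pathways and markers, 10 were called (1.54%, beside 0.351% of all genes tested), 9 higher and 1 lower, and 59 of the 69 called genes belonged to no list. With effective lengths 19 of the list genes were called. Over all tested genes 12151 log2 fold changes were positive and 7457 negative, and the median was 0.07. Each list was read beside these values, and the lists were chosen with earlier results of these data known, so their share of calls is no independent result.

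Chitinases and pathogenesis-related proteins stood high as a list, with 13 of 16 tested members positive, a median of 0.57 and 2 called, AT4G01700 and PR4. The basic chitinase PR3 (18.6, 18 and 17.7 against 29.9, 29.3 and 22.0 FPKM) did not pass (adjusted p = 0.148), and neither did the osmotin gene AT4G11650 (55.2, 46.3 and 49.4 against 73.3, 120 and 81.4 FPKM, adjusted p = 0.0833). Members of the salicylic acid and immunity list, 14 tested, had a median of 0.26 (0.13 without smxl5-1 replicate 2 and 0.15 without replicate 1) with 0 called, and those of the pattern-triggered response list, 21 tested, a median of 0.17 with 0 called. PR5, a marker of salicylic acid responses, stood at 5.79, 8.34 and 7.19 FPKM in the WT libraries, and at 6.49, 5.53 and 5.34 FPKM in smxl5-1 (-0.25, adjusted p = 0.638). Among 21 jasmonate genes CORI3 was called and the median was 0.27 (0.14 without smxl5-1 replicate 2 and 0.12 without WT replicate 2), while LOX2, a lipoxygenase of jasmonate synthesis, stood at 43.6, 43.9 and 52.0 FPKM in the WT libraries and 81.6, 107 and 77.6 FPKM in smxl5-1 (0.91, adjusted p = 0.0823). The ethylene list had a median of 0.34 over 21 genes, 17 of them positive, and 0 called; EBP was not a member of it.

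Genes of low oxygen responses were positive in 17 of 18 cases, with a median of 0.41. HB1, a phytoglobin that removes nitric oxide, was the member called, at 7.54, 8.80 and 9.02 FPKM in the WT libraries and 13.4, 17.1 and 14.3 FPKM in smxl5-1 (0.75, adjusted p = 0.0433, with 0 of the 6 fits without 1 library and 0.07 to 0.175). ADH1, alcohol dehydrogenase, stood at 1.5, 1.85 and 3.46 FPKM in the WT libraries, and at 12.7, 6.53 and 6.48 FPKM with smxl5-1 and did not pass (1.54, adjusted p = 0.331). Genes of abscisic acid and dehydration were positive in 17 of 21 cases with a median of 0.43, 11 of them at an unadjusted p under 0.05 and 0 called. ABI1, a phosphatase that restrains abscisic acid signalling, stood at 17.6, 19.3 and 19.3 FPKM in the WT libraries, and at 26.2, 35.1 and 27.3 FPKM in smxl5-1 (0.62, adjusted p = 0.0639, and 0.0363 with effective lengths). Senescence genes were positive in 15 of 16 cases with a median of 0.35 and 0 called, among them SAG21 (181, 224 and 259 against 382, 334 and 467 FPKM, adjusted p = 0.0823).

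Iron genes were positive in 18 of 22 cases with a median of 0.38, and FER1 was the member called. BHLH38, a regulator that iron deficiency induces, stood at 58.1, 33.9 and 29.4 FPKM in the WT libraries, and at 90.4, 74.5 and 74.7 FPKM in smxl5-1 (1.02, adjusted p = 0.27), and FRO2, the ferric reductase of the root surface, at 10.0, 12.3 and 7.93 against 14.5, 29.4 and 14.2 FPKM (0.82, adjusted p = 0.351). Neither overlapped between groups, and neither passed. The groups did not overlap in 12 of the 22 tested iron genes, beside 19% of all tested genes. Genes of detoxification (30 tested, median 0.29), camalexin and indole glucosinolates (19, 0.32, and 0.13 without smxl5-1 replicate 2 or 0.21 without replicate 1), endoplasmic reticulum stress (16, all positive, 0.18) and mitochondrial stress (12, 0.18) had 0 called.

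Phloem genes, the tissue in which SMXL5 acts, had a median of -0.14 over 17 tested members, with 12 negative and 0 called. SUC2, the sucrose carrier of companion cells, stood at 37.6, 42.4 and 40.8 FPKM in the WT libraries, and at 26.4, 34.6 and 22.3 FPKM in smxl5-1 (-0.54, adjusted p = 0.201). SWEET11, which exports sucrose from phloem parenchyma, stood at 95.9, 109 and 88.6 against 71.5, 68.8 and 83.3 FPKM (-0.39, adjusted p = 0.227), whereas its relative SWEET12 stood at 9.23, 12.7 and 11.4 against 13.4, 16.6 and 13.8 FPKM (0.37, adjusted p = 0.374). In all 3 genes the groups did not overlap, and none passed. The groups did not overlap in 5 of the 17 tested phloem genes, beside 19% of all tested genes. The summed FPKM of the 19 phloem genes with a value was 332 to 367 in WT, 275 to 304 in smxl5-1, 366 to 422 in the double mutant and 348 to 407 in smax1-2. The mean of smxl5-1 was 15.6% below WT, with an exact two-sided permutation p = 0.1, the smallest that 3 against 3 libraries allow. Leaving out 1 library moved the phloem median between -0.17 (WT replicate 1) and -0.09 (WT replicate 2 or smxl5-1 replicate 2). Genes of xylem and cambium (15 tested, median 0.06, and -0.15 without smxl5-1 replicate 2) and of karrikin and strigolactone (9 tested, median 0.17, and 0.03 to 0.27 without 1 library) had 0 called.

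**Figure D4:**
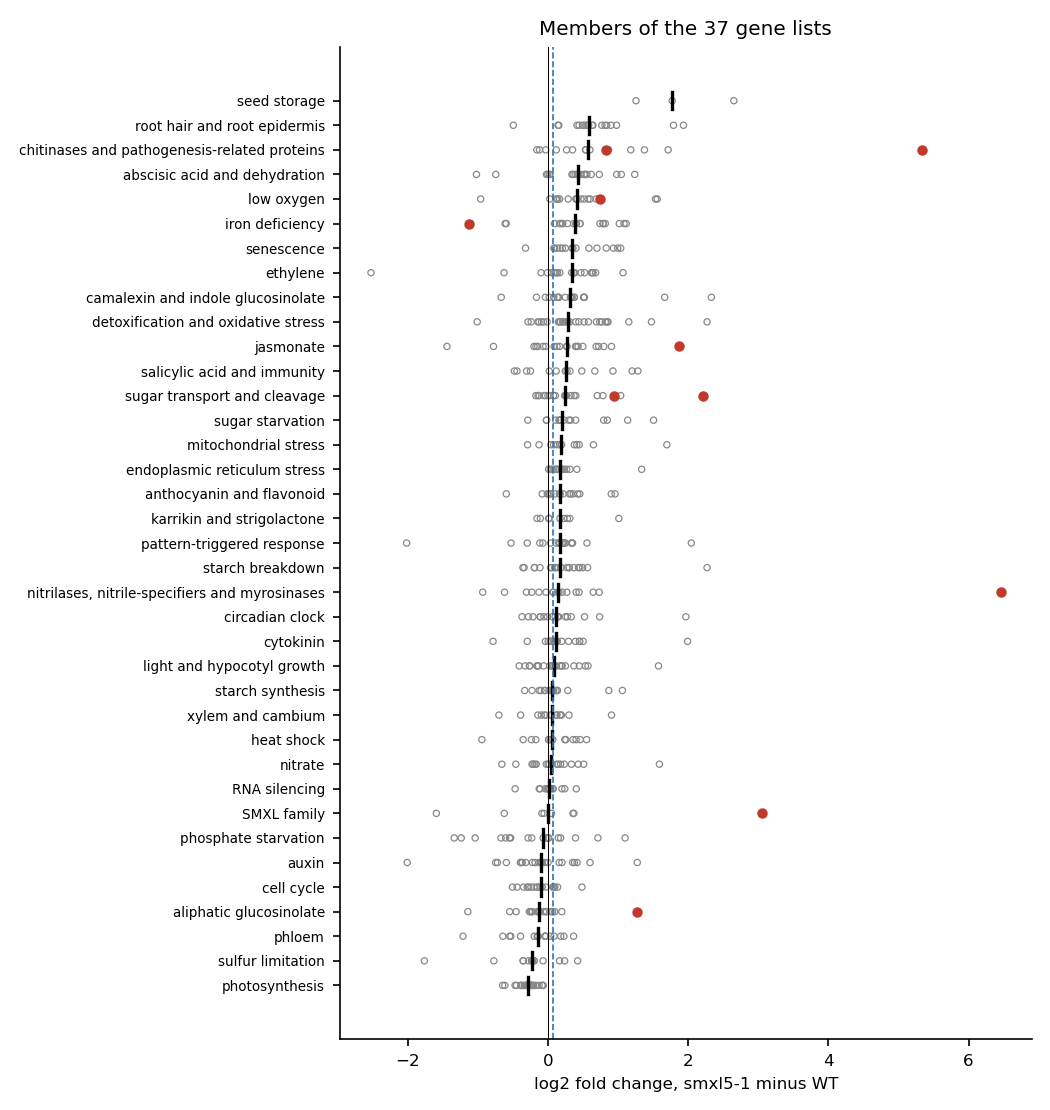
Log2 fold change of smxl5-1 minus WT for every tested member of the 37 gene lists, with 1 row per list, open circles for genes not called, red points for called genes, a black bar at the median of the list and a dashed line at 0.07, the median of all tested genes. Chitinases (0.57) and root hair genes (0.58) have high medians and photosynthesis (-0.29) the lowest, and the 10 red points lie in 8 lists.

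The summed levels of the photosynthesis and phloem markers separated WT from smxl5-1, and those of root hair and of xylem and cambium overlapped. All 24 tested photosynthesis genes were lower in smxl5-1, with a median of -0.29 (-0.11 after quantile normalization and -0.36 after median-of-ratios scaling) and 0 called. Their sum was 117266 to 135826 FPKM in the WT libraries and 105996 to 106344 FPKM with smxl5-1, 16.7% lower in the mean. Root hair genes were higher in 18 of 19 cases, with a median of 0.58 and 0 called, and their sum was 63.7 to 117 FPKM in the WT libraries and 112 to 213 FPKM with smxl5-1, 63.4% higher in the mean. The highest root hair sum belonged to smxl5-1 replicate 2, and the median of the list without that library was 0.40, and 0.37 without WT replicate 2. The exact two-sided permutation p of the sums was 0.1 for photosynthesis and 0.2 for root hairs, again with 0.1 as the smallest possible. The xylem and cambium sum differed by 2.86%, and the seed storage sum was 0 to 1.55 FPKM in the WT libraries and 7.07 to 23.5 FPKM with smxl5-1, with 5 of 11 seed genes at 0 in every library. The 25 photosynthesis and 20 root hair markers each had 1 gene at 0 in every library. The lowest sum of any of the 12 libraries was 105996 FPKM for photosynthesis and 63.7 FPKM for root hair. Markers of shoot and of root were thus both present in all libraries. The part of these sums in the results of the other gene groups was not tested.

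**Figure D5:**
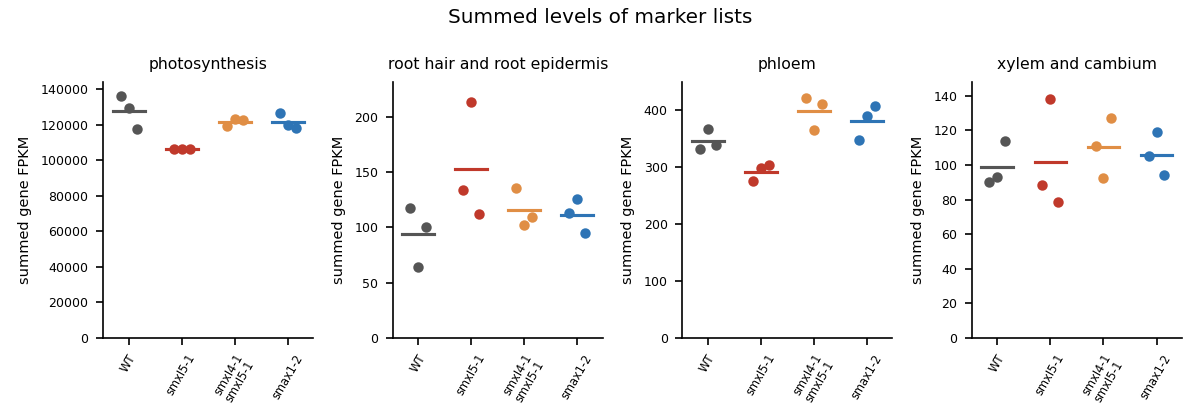
Summed gene FPKM of the photosynthesis, root hair, phloem, and xylem and cambium lists in the 12 libraries, with 1 point per library, a bar at each group mean and vertical axes that start at 0. The 3 smxl5-1 points lie below all WT points for photosynthesis and phloem, while replicate 2 stands highest for root hair at 213 FPKM.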

How the data were processed

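RNA was sequenced from pools of seedlings of 4 genotypes, with 3 libraries each. Per the labels' protocols, total RNA was extracted with phenol and chloroform and poly-A RNA was enriched with beads. Per the submitters' processing notes, TopHat2 2.0.14 and TAIR10 were used. Per the file headers, the deposited tables are assembled transcript pieces compared with a reference annotation, as Cufflinks and Cuffcompare write them. They give FPKM with its confidence bounds, coverage signal and the piece's share of its gene in percent, all as deposited by the authors. For the annotation release, strand protocol and read numbers, the record is: not given in the sources used here. The tables hold no counts, so log2 values were tested and no count-based test was used.

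The value of a gene was the sum over its pieces of FPKM times the piece's share of the reference length. Genes that reached 1 FPKM in 3 or more of 12 libraries were tested with limma 3.58.1 (R 4.3.3) on log2(FPKM + 1), with a mean-variance trend and all 4 groups in 1 fit (8 residual degrees of freedom). Fold changes are on that scale and understate the change of low genes. The p-values were adjusted by Benjamini-Hochberg over all tested genes. They measure the spread between biological replicates per the labels. An effective-length value assumed fragments of 200 ± 80 nucleotides. Fragments were estimated from the bounds, taken as FPKM ± 2 SD. The bounds do not cover the spread between biological replicates. For some abundant pieces they are wider than counting error alone would give, so those estimates are low. The steps were tested on simulated data.

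The genes named were SMXL5 and the other mutated genes, up to 12 called genes per direction by size (mean of at least 5 FPKM, no overlap, called with both values), called list members, and genes within 25 kb of SMXL5. The members and lists were chosen with earlier results of these data known. Replicate numbers were not used as pairs. Alternatives covered the gene value, pseudocount, filter, scaling, libraries fitted and each library left out. Of the 20869 genes with a value, 20728 were found in TAIR10.1, whose coordinates are given. Among the pieces outside the gene values, 1 locus is not reported here.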

Additional observations from a re-analysis of the deposited data

Results flagged for a closer look

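Pieces that lie in introns or run on past a gene's end were not part of the gene values. At the 4 loci given here, such pieces were listed in all 3 smxl5-1 libraries and in no WT library. Intronic pieces of GOS12, 66 to 112 nucleotides long, stood at 299, 195 and 2993 FPKM in smxl5-1 and at 0 in the other 9 libraries, on 18, 13 and 11.9 estimated fragments. The lowest smxl5-1 value of the run-on pieces was 11.2 FPKM at AT1G36630, 9.58 FPKM at AT2G35460 and 15.1 FPKM at AT3G17090. Run-on pieces of AT2G35460 were also listed in all double mutant libraries. All of these values rested on 9.59 to 31 fragments per library, near the lower end of what the tables list. The reverse case, listed in all WT libraries and in no smxl5-1 library, occurred at 7 loci, with intronic pieces of AT1G32120, NAC052, AT3G59800, ATSRL1, RPS6 and FUM2 and run-on pieces of AT5G13810. The run-on pieces of AT5G13810, 55 to 58 nucleotides long, stood at 7447, 20465 and 10882 FPKM in the WT libraries, and at 0 elsewhere, on 11, 14 and 9.59 fragments.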

How the results depend on the processing

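Against WT, the 69 calls became 139 with effective lengths, 175 with effective lengths over genes listed in all 6 libraries (added after seeing the data), 9 with the plain sum of FPKM, 37 with quantile normalization, 34 with the 6 libraries alone and 25 with the replicate block. Leaving out 1 library gave 23 to 59 calls, 17 to 40 of them among the 69, and 29 to 125 with effective lengths, with 41 without WT replicate 2 (added after seeing the data). Pseudocounts of 0.1 or 5, other filters or a robust variance gave 58 to 82 calls, 54 to 69 of them among the 69, and median-of-ratios scaling gave 49, with 46 among the 69. Against the double mutant, the 588 calls became 1248 with effective lengths, 80 with the plain sum, 69 with the 6 libraries alone, 225 with the replicate block and 207 to 486 without 1 library. Against smax1-2, the 44 calls became 116 with effective lengths, 13 with the plain sum, 72 with a pseudocount of 5, 22 with the 6 libraries alone, 20 with the replicate block and 14 to 33 without 1 library. The deviations of libraries with the same number correlated at -0.06, -0.08 and 0.00 between WT and smxl5-1, so the numbers do not pair them. Of the 27 named calls, 27 were kept with effective lengths, without a filter and with a robust variance, 23 with median-of-ratios scaling, 17 with quantile normalization, 15 with the block, 13 with the 6 libraries alone and 5 with the plain sum. No called gene among those named changed direction in the alternatives run, while list medians without 1 library, computed after seeing the data, did so for some lists near 0. The plain sum counts short pieces in full. The cause of the other shifts was not tested. Pieces under 9.5 estimated fragments were rare among those listed, which limits what a 0 says.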

Other observations

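Further called genes, chosen after their values were seen and in none of the lists, add to the account. TI1, a trypsin inhibitor, stood at 20.7, 26.3 and 33.2 FPKM in the WT libraries, and at 58, 55.6 and 82.5 FPKM in smxl5-1 (log2 fold change 1.26, limma adjusted p = 0.029, called in 2 of 6 fits without 1 library, adjusted p from 0.0264 to 0.111). AT1G17860, annotated as a Kunitz-type inhibitor, stood at 204, 211 and 167 FPKM in the WT libraries, and at 350, 394 and 276 FPKM in smxl5-1 (log2 fold change 0.80, limma adjusted p = 0.0464, called in 1 of 6 fits without 1 library, adjusted p from 0.0327 to 0.155). Both were higher in every smxl5-1 library than in any WT library. XTH31, which cuts and rejoins the xyloglucan of cell walls, stood at 104, 124 and 124 FPKM in the WT libraries, and at 177, 238 and 186 FPKM in smxl5-1 (log2 fold change 0.76, limma adjusted p = 0.0412, called in 0 of 6 fits without 1 library, adjusted p from 0.0585 to 0.166). CSY3, a citrate synthase of peroxisomes, stood at 12.7, 14.7 and 13.2 FPKM in the WT libraries, and at 21.7, 21.5 and 23.3 FPKM in smxl5-1 (log2 fold change 0.68, limma adjusted p = 0.0216, called in 2 of 6 fits without 1 library, adjusted p from 0.0378 to 0.105). These groups did not overlap either. HEMA1, the glutamyl-tRNA reductase that opens chlorophyll synthesis, stood at 188, 186 and 187 FPKM in the WT libraries, and at 112, 135 and 90.7 FPKM in smxl5-1 (log2 fold change -0.75, limma adjusted p = 0.0464, called in 1 of 6 fits without 1 library, adjusted p from 0.0195 to 0.179). HAT1, a homeodomain leucine zipper factor, stood at 43.6, 42.2 and 36.9 FPKM in the WT libraries, and at 27, 28.3 and 25.5 FPKM in smxl5-1 (log2 fold change -0.58, limma adjusted p = 0.0293, called in 2 of 6 fits without 1 library, adjusted p from 0.0331 to 0.155). AT5G18030, annotated as a SAUR-like auxin-responsive protein, stood at 52.8, 50.5 and 41.6 FPKM in the WT libraries, and at 24.1, 29.2 and 23.6 FPKM in smxl5-1 (log2 fold change -0.89, limma adjusted p = 0.0216, called in 2 of 6 fits without 1 library, adjusted p from 0.0225 to 0.106). These 3 were lower in every smxl5-1 library than in any WT library.

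Some genes were called with effective lengths and not with the plain length ratio. NRT1.8, which takes nitrate out of the xylem sap, stood at 1.57, 3.88 and 7.03 against 14.7, 13.6 and 11.1 FPKM (adjusted p = 0.146, and 0.00494 with effective lengths). XTH18, a root xyloglucan enzyme, stood at 15.5, 19.9 and 41.6 against 57.9, 62.8 and 61.9 FPKM (adjusted p = 0.0817, and 0.0146 with effective lengths). RNS1, a ribonuclease of senescence and phosphate starvation, stood at 2.33, 2.57 and 3.79 against 8.25, 6.82 and 6.77 FPKM (adjusted p = 0.0735, and 0.0178 with effective lengths). In these 3 genes the groups did not overlap, which held for 19% of all tested genes. LOG1, which activates cytokinins, stood at 40.1, 34.8 and 31.5 against 27.9, 15.5 and 18.9 FPKM (adjusted p = 0.155, and 0.0301 with effective lengths). It was the lower one of those chosen here, also without overlap.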
